A study of Mus musculus with 3 samples.

Results

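The Y complex is the subunit from which the cytoplasmic and the nuclear outer ring of the nuclear pore are built. Its genes were taken as a fixed list of 10 members of the 24421 genes in the count data, namely Nup107, Nup133, Nup98, Sec13, Nup85, Nup43, Seh1l, Nup160, Nup37 and Ahctf1. The genes are listed by the place of their proteins in the complex, no measured value enters the rule, and all 10 members had a mean of at least 10 reads, as did 16670 of all genes. RNA was sequenced from the female mouse embryonic stem (ES) cell line EL 16.7 (F2 background 129S1/CastEiJx 129S1), held undifferentiated with LIF on γ-irradiated fibroblasts of Tg(DR4)1Jae/J embryos. The control library came from cells transduced by lentivirus with a control shRNA, the KD-1 library from cells with Nup153 shRNA-1 and the KD-2 library from cells with Nup153 shRNA-2, and selection with 2 μg/ml puromycin lasted 2 days in all 3. With 1 library per condition the spread between replicates is unknown, and each interval below covers the counting of reads only.

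The nuclear pore is the channel through the nuclear envelope by which proteins and RNA pass between nucleus and cytoplasm. Y-shaped complexes join head to tail into rings that hold the other nucleoporins, and they are among the first parts to be put in place when pores form, either on chromatin at the end of mitosis or in the intact envelope of interphase. The stem of the Y holds Nup107, Nup133, Sec13 and Nup96, the short arm holds Nup85, Nup43 and Seh1, and the long arm holds Nup160, Nup37 and ELYS, the product of Ahctf1. The same complex also sits on kinetochores in mitosis. Nup153, which the shRNAs target, is not part of the Y complex but of the nuclear basket on the side of the pore that faces the chromatin.

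The control library held 72344726 reads on genes, with 85258834 for KD-1 and 69839336 for KD-2. Nup153 (chromosome 13, 46679905 to 46727940, minus strand, GRCm38) was counted by 27870 control reads, 16451 with KD-1 and 11126 with KD-2. After upper-quartile scaling, which divides each library by a size factor from the upper quartile of its gene counts, its log2 fold changes were -0.99 for KD-1 and -1.43 for KD-2, so that both knockdown libraries were below control. KD-2 was the lower of them, except when scaled on proliferation genes, where the values were -0.96 and -0.86. Markers of fibroblasts were present in all 3 libraries, though the cells are labelled as ES cells only, and were uneven between them. Over 11 fibroblast markers, scaled reads summed to 185657 in control, 128883 with KD-1 and 318883 with KD-2, with all 11 lower in KD-1 and all 11 higher in KD-2. Over 10 ES cell markers the sums were 370834, 401350 and 271613, and over 5 primitive endoderm markers 198.8, 249.9 and 247.8. None of the ES cell or fibroblast markers was at 0 reads in any library, the lowest being the ES cell marker Utf1 with 127 reads in control. In such bulk RNA, fewer cells of a type and less RNA per cell cannot be told apart.

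First, the levels of the members were compared within the control library, where reads were divided by exon length and by the reads on all genes to give RPKM. Sec13 was the highest, with 204 RPKM (exact Poisson 95% interval 201 to 207). Nup43 followed with 90.8 RPKM (88.9 to 92.8). Nup98 at 82.6 RPKM and Nup85 at 82.4 RPKM had overlapping intervals, and so had Nup37 at 70.7, Ahctf1 at 69.3 and Nup107 at 68.8 RPKM. At the low end were Nup133 with 45.1, Nup160 with 39.0 and Seh1l with 34.4 RPKM, whose intervals did not overlap. Sec13 is not used by the pore alone, since it is also a coat protein of COPII vesicles, which carry cargo out of the endoplasmic reticulum, and a subunit of GATOR2, an amino acid sensing complex upstream of mTORC1. The highest member was 5.92 times the lowest in control, 5.85 times in KD-1 and 6.53 times in KD-2. Sec13 ranked first and Nup133 eighth in each library, while Nup43 ranked 2 in control and 5 in both knockdown libraries. With the length of the longest transcript in place of all exons, Nup98 moved from rank 3 to 2 in control and Nup160 from 9 to 10. In all 3 libraries the members were among the more strongly read genes, since the lowest of them had more reads than 86.6% of the genes tested in control, 84.1% with KD-1 and 79.2% with KD-2.

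**Figure D1:**
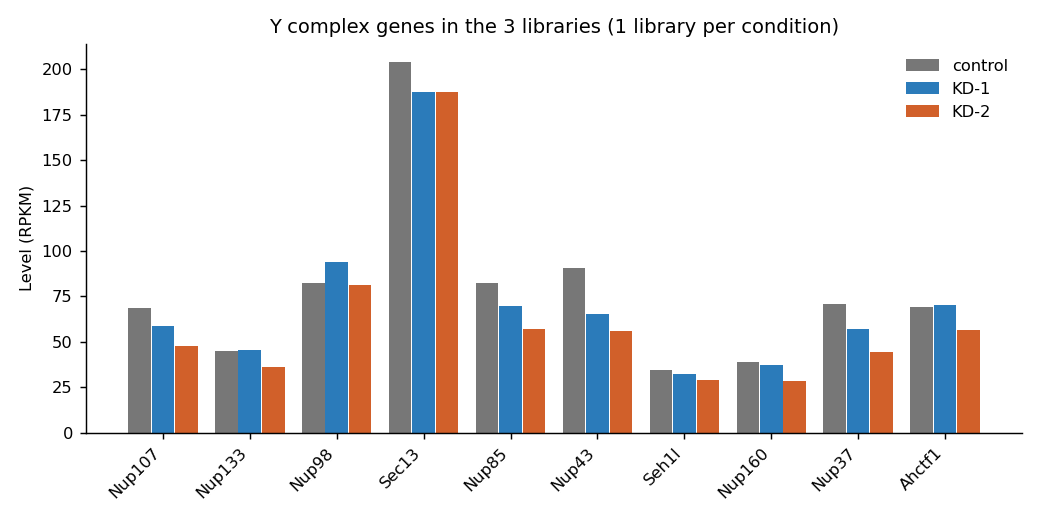
Bars give the level in RPKM of each Y complex gene in the control (grey), KD-1 (blue) and KD-2 (orange) libraries, 1 library each, ordered by stem, short arm and long arm. Sec13 stands above the other genes at 204, 188 and 187 RPKM, and Nup43 has a control bar of 90.8 RPKM above its bars of 65.3 and 56.2 RPKM.

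The promoters of the members were read from the RefSeq window of 250 bases before to 50 bases after the transcription start (GRCm38.p6), which was at hand for 7 members (Nup107, Nup133, Nup160, Nup37, Sec13, Ahctf1 and Nup98). Nup85, Nup43 and Seh1l had no entry. Each window was searched on both strands for 5 motifs, and no match of one overlapped a match of another. A member with more than 1 window (Nup37 and Nup98) was counted if any of them matched, while the shares below count single windows. The ETS letters, CCGGAAG, occurred in 3 of the 7 members (Nup107, Nup37 and Sec13) and in 8.86% of all 32851 promoter windows. The NF-Y letters, CCAAT, occurred in 2 members (Nup37 and Nup98) and 37.4% of all windows. The TATA box letters, TATAAA, occurred in 1 member (Nup160, at position -167) and 13.6% of all windows. The NRF1 core, GCGCATGC, occurred in 1 member (Nup107) and 2.71% of all windows. The YY1 letters, AAGATGG, occurred in 0 members and 6.34% of all windows. GC content of the windows ran from 45.3% for Ahctf1 to 74.7% for one of the start sites of Nup98, beside a median of 52.7% over all windows. The 250 bases before the start site are shown for 3 members as examples, Nup107 and Nup37, which hold ETS letters, and Nup133, which holds none of the 5 motifs. Capitals mark the NRF1 core and ETS letters on either strand. In Nup107 the NRF1 core reads on both strands of 1 site, from positions -65 and -63, and the ETS letters start at -250 and -10. In Nup37 they start at -83 from the first of its start sites, and the NF-Y letters lie at -20. These are matches of letters and not sites of binding, which were not measured here.
Nup107, chr10:117792706-117792955, minus strand: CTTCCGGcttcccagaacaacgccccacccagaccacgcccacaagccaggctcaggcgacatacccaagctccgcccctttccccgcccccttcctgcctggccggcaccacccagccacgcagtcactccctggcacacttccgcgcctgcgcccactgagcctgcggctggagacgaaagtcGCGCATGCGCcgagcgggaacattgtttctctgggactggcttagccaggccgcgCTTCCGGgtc
Nup37, chr10:88146742-88146991, plus strand: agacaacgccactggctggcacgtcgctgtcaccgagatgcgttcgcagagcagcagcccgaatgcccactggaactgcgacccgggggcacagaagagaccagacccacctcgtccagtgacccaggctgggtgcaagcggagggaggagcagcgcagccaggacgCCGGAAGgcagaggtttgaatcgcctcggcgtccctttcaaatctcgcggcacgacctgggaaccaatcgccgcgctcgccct
Nup133, chr8:123949266-123949515, minus strand: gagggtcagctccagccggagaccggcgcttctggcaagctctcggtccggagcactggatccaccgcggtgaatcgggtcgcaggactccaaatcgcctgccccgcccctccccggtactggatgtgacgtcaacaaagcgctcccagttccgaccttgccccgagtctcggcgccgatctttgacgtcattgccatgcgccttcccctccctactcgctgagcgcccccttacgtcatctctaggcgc

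To determine how the Y complex genes stood after Nup153 knockdown, reads were scaled and compared between libraries as log2 fold changes with a pseudocount of 0.5 reads. Genes past 1.5-fold in either direction are counted, and with 1 library per condition this count is a description and no test. In KD-1, 0 of 10 members were past 1.5-fold, beside 5.62% of all 16670 genes that were lower and 8.63% that were higher. In KD-2, 5 of 10 members were lower past 1.5-fold (Nup107, Nup85, Nup43, Nup160 and Nup37) and 0 higher, beside 10.2% of all genes lower and 17.1% higher. This count depends on the scaling, and was 4 by TMM (8.35% of all genes) or DESeq2's size factors (8.49%), 2 by library totals (4.92%) and 0 when scaled on ES cell markers (3.01%) or on proliferation genes (1.1%). In KD-1, 7 of 10 members were below 0, beside 46.9% of all genes, and 9 were with DESeq2's size factors (56.3% of all genes) or when scaled on ES cell markers (58.8%). In KD-2, 10 of 10 were below 0, beside 51.7% of all genes, but 9 when scaled on ES cell markers (30.3% of all genes) and 5 when scaled on proliferation genes (10.8%). The median log2 fold change of the members was -0.10 for KD-1 and -0.54 for KD-2, where the medians of all genes were 0.02 and -0.02. Both comparisons use the same control library. Markers moved beside these values in KD-2, where the summed scaled reads of the Y complex genes were 0.742 times control, those of the 10 ES cell markers 0.732 times, those of 10 proliferation genes 0.682 times and those of the 11 fibroblast markers 1.72 times. In KD-1 the same ratios were 0.989, 1.08, 0.958 and 0.694. The part of these shifts in the result was not tested.

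**Figure D2:**
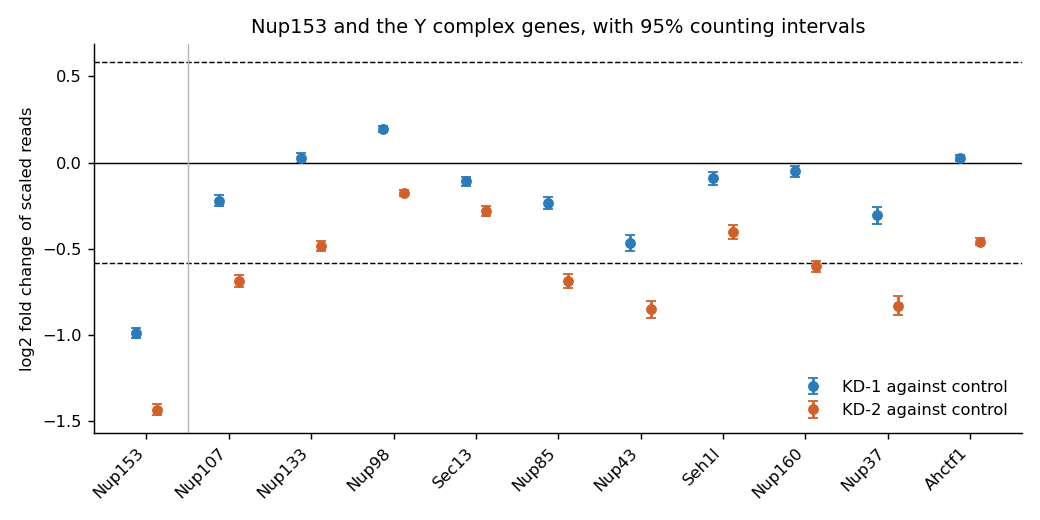
Points give the log2 fold change of scaled reads against control for Nup153 and the 10 Y complex genes in KD-1 (blue) and KD-2 (orange), with exact 95% intervals that cover the counting of reads only, and dashed lines at 1.5-fold. Every Y complex gene lies lower in KD-2 than in KD-1, and all lie above Nup153 in the same comparison.

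The genes are placed by GENCODE on GRCm38, and the values of each span all of its exons. The stem genes are Nup107 (chromosome 10, 117750621 to 117792705, minus strand), Nup133 (chromosome 8, 123897123 to 123949265, minus strand), Nup98 (chromosome 7, 102119398 to 102210176, minus strand) and Sec13 (chromosome 6, 113728062 to 113740743, minus strand). Among them, Nup107, whose protein links Nup133 to Nup96, had 15497 control reads, 15586 with KD-1 and 10360 with KD-2. Its level was 68.8, 58.7 and 47.6 RPKM, so that both knockdown libraries were below control. The log2 fold change was -0.22 in KD-1 (95% counting interval -0.25 to -0.19) and -0.69 in KD-2 (-0.72 to -0.65). Nup133, which lies at the tip of the stem and touches the next Y complex in the ring, had 18936, 22608 and 14578 reads, or 45.1, 45.7 and 35.9 RPKM. The log2 fold change was 0.03 in KD-1 (-0.00077 to 0.06) and -0.48 in KD-2 (-0.52 to -0.45). The sign in KD-1 turned with DESeq2's size factors and when scaled on ES cell markers, and that in KD-2 when scaled on proliferation genes. Nup98 encodes a precursor that is cut into Nup98, a mobile nucleoporin with FG repeats, and Nup96, the stem subunit, and its reads count for both products. It had 48959, 65753 and 46657 reads, or 82.6, 94.1 and 81.5 RPKM. It was the member highest above control in KD-1, at a log2 fold change of 0.20 (0.18 to 0.21), and the highest of the members in KD-2, at -0.18 (-0.19 to -0.16). In KD-2 Nup98 was at 0.10 when scaled on ES cell markers and at 0.40 when scaled on proliferation genes. Sec13 had 19937, 21655 and 17689 reads, or 204, 188 and 187 RPKM. Both knockdown libraries were below control, with log2 fold changes of -0.11 (-0.14 to -0.08) and -0.28 (-0.31 to -0.25). In KD-2 Sec13 was at -0.00081 when scaled on ES cell markers and at 0.29 when scaled on proliferation genes.

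The short arm genes are Nup85 (chromosome 11, 115564434 to 115583985, plus strand), Nup43 (chromosome 10, 7667503 to 7678881, plus strand) and Seh1l (chromosome 18, plus strand). Among them, Nup85, a scaffold protein of the arm, had 13288 control reads, 13240 with KD-1 and 8892 with KD-2, or 82.4, 69.6 and 57.1 RPKM. The log2 fold change was -0.23 in KD-1 (-0.27 to -0.20) and -0.69 in KD-2 (-0.73 to -0.65), close to those of Nup107 in both libraries. Nup43, a WD repeat protein bound to Nup85, had 8448, 7157 and 5047 reads, or 90.8, 65.3 and 56.2 RPKM. It was the lowest member against control in both knockdown libraries, at -0.47 (-0.51 to -0.42) in KD-1 and -0.85 (-0.90 to -0.80) in KD-2. Of all genes tested, 7.96% were lower than Nup43 in KD-1 and 3.11% in KD-2. Seh1l, which like Sec13 is shared with GATOR2, had 10266, 11282 and 8360 reads, or 34.4, 32.1 and 29.0 RPKM. The log2 fold change of Seh1l was -0.09 in KD-1 (-0.13 to -0.05) and -0.40 in KD-2 (-0.45 to -0.36), so that it was not past 1.5-fold where both other genes of the arm were. Scaled on proliferation genes Seh1l was at 0.17 in KD-2. In Seh1l 126 exon bases overlap 4930549G23Rik on the opposite strand, and as the strand counted is not given, it is not known to which gene reads there were assigned. No other member shares exon bases with another gene of the count data that matched the annotation.

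The long arm genes are Nup160 (chromosome 2, 90677215 to 90736328, plus strand), Nup37 (chromosome 10, 88146992 to 88178390, plus strand) and Ahctf1 (chromosome 1, 179744894 to 179803680, minus strand). Among them, Nup160, a large scaffold protein, had 16047 control reads, 18145 with KD-1 and 11382 with KD-2, or 39.0, 37.4 and 28.7 RPKM. It stood near control in KD-1 with a log2 fold change of -0.05 (-0.08 to -0.02) and just past 1.5-fold in KD-2 with -0.60 (-0.64 to -0.57), an interval that holds the 1.5-fold value of -0.58. Nup37, a WD repeat protein bound to Nup160, had the fewest reads of the members, 6956, 6596 and 4217, or 70.7, 56.9 and 44.4 RPKM. The log2 fold change was -0.31 in KD-1 (-0.35 to -0.26) and -0.83 in KD-2 (-0.88 to -0.77), next to that of Nup43. Ahctf1 encodes ELYS, which binds chromatin and recruits the Y complex to it after mitosis. It had 42672, 50923 and 33437 reads, or 69.3, 70.2 and 56.3 RPKM. Its log2 fold change of 0.03 in KD-1 (0.01 to 0.05) was close to 0, and that of -0.46 in KD-2 (-0.48 to -0.44) was below it. In KD-1 Ahctf1 was at -0.04 with DESeq2's size factors and -0.06 when scaled on ES cell markers. In KD-2 it was at 0.12 when scaled on proliferation genes. Under the upper quartile each of the stem, the short arm and the long arm held members past 1.5-fold in KD-2 as well as members that were not, while by library totals Nup43 in the short arm and Nup37 in the long arm were past it and no stem gene was.

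Next, the knockdown libraries were compared directly. In KD-1 against KD-2, 10 of 10 members were above 0, beside 58.9% of all genes, with a median log2 fold change of 0.46 beside 0.12 for all genes, but 2 were below 0 when scaled on ES cell markers (69.8% of all genes) and 9 when scaled on proliferation genes (83.3%). None was past 1.5-fold, where 13.9% of all genes were higher in KD-1 and 16.1% lower. The members ran from 0.17 for Sec13 to 0.55 for Nup160, and Nup153 itself was at 0.44, or -0.10 when scaled on proliferation genes. With the exception of Sec13, Seh1l, Nup98 and Nup43, which lay between 0.17 and 0.38, the members were within 0.45 to 0.55. The 10 proliferation genes had a median of 0.47 in the same comparison and the 11 fibroblast markers a median of -1.91, and their part in the difference was not tested.

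KD-1 and KD-2 as 1 group were set against control in the quasi-likelihood test of edgeR over 16670 genes. This test has 1 residual degree of freedom, which comes from libraries with different shRNAs, and the lone control is assumed to vary like them. It called 0 of 10 members at an FDR under 0.05, beside 0.006% of all genes (1 gene), and 211 genes but no member had an unadjusted p under 0.05. The member with the lowest p was Nup43 (edgeR quasi-likelihood test, adjusted p = 1.00) at a fitted log2 fold change of -0.65. Nup153 was among the 211 genes, and its adjusted p from edgeR was also 1.00. The Wald test of DESeq2 called 0 members and 2 genes, with an unadjusted p under 0.05 for 86 genes, none of them a member. The edgeR fit estimated a common dispersion of 0.0828, a coefficient of variation of 28.8% between libraries of a group.

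The make-up of the complex at the RNA level was described by the share of each member in the summed RPKM of all 10. Sec13 made up 25.9% in control, 26.2% with KD-1 and 30.0% with KD-2. Nup98 made up 10.5%, 13.1% and 13.1%, so that its share was higher in both knockdown libraries. Nup43 made up 11.5%, 9.09% and 9.01%, and Nup37 8.99%, 7.93% and 7.12%. Nup107 made up 8.74%, 8.18% and 7.63%, and Nup85 10.5%, 9.70% and 9.15%, so that the shares of these 4 genes were lower in both. The other 4 members, Nup133, Seh1l, Nup160 and Ahctf1, made up between 4.38% and 8.81% in control and between 4.60% and 9.02% in KD-2. These shares do not depend on how the libraries are scaled to each other.

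The fold changes of the members were also set beside their exon length. Exon length ran from 1286 bases for Nup43 to 8506 bases for Ahctf1. Over the 10 members, Spearman's rho between exon length and the log2 fold change was 0.89 for KD-1 and 0.54 for KD-2, and Pearson's r with log2 length was 0.85 and 0.54. In KD-1 against KD-2 rho was 0.28. Sec13, with 1353 exon bases, lay apart from the order of length. Over the 16509 genes tested that have an exon length, rho was 0.07 and 0.05. The mean reads of the members, which also depend on exon length, gave rho of 0.83 and 0.77, where all genes gave -0.20 and -0.26. The members share their libraries, including the control, and are no replicates of each other, so that these values describe the 10 genes only.

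**Figure D3:**
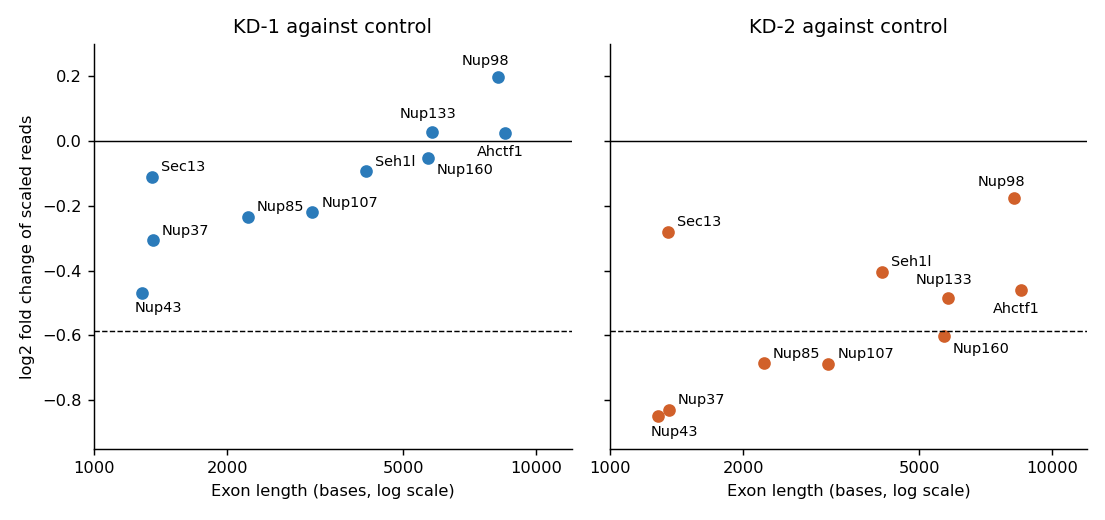
Each point is a Y complex gene, with exon length in bases on a log axis and the log2 fold change of scaled reads against control in KD-1 (left) and KD-2 (right). Nup43 and Nup37 lie at the short and low end and Nup98 at the long and high end of both panels, while Sec13 lies above genes of its length, at -0.11 and -0.28.

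The other nucleoporins were then set beside the Y complex. Of 20 genes, 8 were below 0 for KD-1 and 20 for KD-2, beside 46.9% and 51.7% of all genes, with medians of 0.02 and -0.35, and in KD-1 14 were with DESeq2's size factors (56.3% of all genes) or on ES cell markers (58.8%). Lower past 1.5-fold in KD-2 were 4 of them, beside 10.2% of all genes, but 1 by TMM or DESeq2's size factors and 0 by library totals or by either marker scaling. The 5 inner ring genes, whose proteins form the scaffold at the middle of the pore, had medians of -0.07 for KD-1 and -0.59 for KD-2, and 3 of them were lower past 1.5-fold in KD-2, Nup35 at -0.71, Nup205 at -0.61 and Nup155 at -0.59, of which Nup35 alone was so by TMM or DESeq2's size factors and none by library totals. The 3 central channel genes had medians of -0.15 and -0.55, and Nup54 was at -0.59 in KD-2, past 1.5-fold under the upper quartile only. The 7 cytoplasmic genes, whose proteins act in mRNA export, had medians of 0.06 and -0.19 with 0 past 1.5-fold, and the 2 basket partners of Nup153, Nup50 and Tpr, had medians of 0.03 and -0.36. The 3 membrane nucleoporins had medians of 0.28 and -0.37, and Pom121 was higher past 1.5-fold in KD-1 with 656 control reads, 1288 with KD-1 and 677 with KD-2 (log2 fold change 0.74). Under scaling by library totals 16 of the 20 genes were below 0 in KD-2, beside 40.1% of all genes, by the ES cell markers 11, beside 30.3%, and by the proliferation genes 4, beside 10.8%.

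Since Sec13 and Seh1l have further partners, genes of their other complexes were also examined. Of the 3 GATOR2 genes, Mios stood at -0.61 in KD-2, lower past 1.5-fold under the upper quartile but under none of the other 5 scalings, and Wdr24 and Wdr59 were at -0.25 and -0.09. In KD-1 these 3 genes lay between -0.14 and 0.15. The 11 COPII genes had medians of 0.05 for KD-1 and 0.03 for KD-2, with 5 of 11 below 0 in each. Under the upper quartile Sec31b was the only one past 1.5-fold, on 8 control reads, 33 with KD-1 and 19 with KD-2. The summed scaled reads of the COPII genes were 0.979 times those of control with KD-1 and 1.01 times with KD-2. In KD-2, COPII genes higher past 1.5-fold numbered 2 by library totals (23.6% of all genes), 2 on ES cell markers (29.4%) and 6 on proliferation genes (47.3%), and those below 0 numbered 2, 2 and 0, beside 40.1%, 30.3% and 10.8% of all genes. Sec13 was at -0.28 in KD-2, between the medians of the COPII genes and of the Y complex, and at -0.11 in KD-1, below both medians.

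Proliferation genes were included because pores are rebuilt in each division. All 10 were below 0 in KD-2 (8 when scaled on ES cell markers), with a median of -0.58. Lower past 1.5-fold were 5, beside 10.2% of all genes, with Top2a at -0.76, Pcna at -0.71 and Bub1 at -0.65 the lowest, but 3 by TMM or DESeq2's size factors, 1 by library totals and 0 on the ES cell markers. In KD-1 their median was 0.00, with 5 of 10 below 0, beside 46.9% of all genes, but 7 with DESeq2's size factors (56.3%) and 9 on ES cell markers (58.8%). The 10 ES cell markers had medians of 0.08 and -0.30. In KD-2 Zfp42 at -0.70 and Tdgf1 at -0.61 were lower past 1.5-fold, where TMM and DESeq2's size factors left 1 gene and library totals 0, and Utf1, on 308 reads, was higher at 1.17, as it was in KD-1 at 0.69. Of the 11 fibroblast markers, 7 were lower past 1.5-fold in KD-1, beside 5.62% of all genes, Postn at -2.01, Acta2 at -1.52 and Lum at -1.44 the lowest, and 9 were higher past 1.5-fold in KD-2, beside 17.1% of all genes, Col5a1 at 1.58, Pdgfrb at 1.08 and Col3a1 at 0.96 the highest. Of the 4 primitive endoderm markers tested, on few reads, 1 was below 0 in KD-1 and 2 were in KD-2, with Gata4 the lowest in both at -0.36 and -0.24, Sox17 the highest in KD-1 at 0.80 and Gata6 in KD-2 at 1.08.

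The values in KD-2 were also computed under other scalings of the libraries. By library totals all 10 members were below 0 in KD-2 and 2 were past 1.5-fold, Nup43 and Nup37, beside 4.92% of all genes. By the median ratio of the 10 ES cell markers, a scaling added after the data were seen, 9 of 10 were below 0, with Nup98 at 0.10 and Sec13 at -0.00081, and 0 were lower past 1.5-fold, beside 30.3% and 3.01% of all genes. By the median ratio of the 10 proliferation genes, also added later, 5 of 10 were below 0, beside 10.8% of all genes, and these were the 5 members past 1.5-fold under the upper quartile. The order of the members from Nup43 to Nup98 is the same under each scaling, because a scaling moves all genes of a library together. The median of all genes in KD-2 was 0.14 by library totals, 0.26 by the ES cell markers and 0.55 by the proliferation genes, where the medians of the members were -0.39, -0.26 and 0.03.

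**Figure D4:**
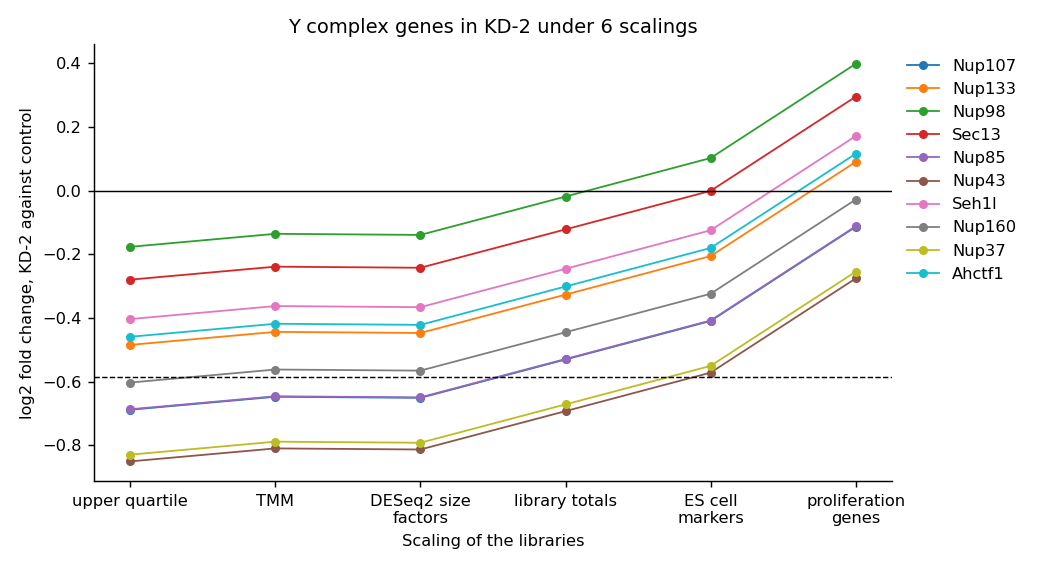
Lines join the log2 fold change in KD-2 against control of each Y complex gene under 6 scalings of the libraries, with a solid line at 0 and a dashed line at 1.5-fold lower (the line of Nup85 covers that of Nup107). The 10 genes are below 0 under the first 4 scalings, 9 are under the ES cell markers and 5 are under the proliferation genes.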

How the data were processed

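Ribosomal RNA was depleted, and single-end reads of 50 bp were sequenced. The authors trimmed reads with Trim Galore 0.4.1, mapped them with TopHat2 2.1.1 to mm10 (GRCm38) and deposited raw read counts per gene symbol, without normalization. The submitters' processing notes name HTSeq and the methods name featureCounts, and the strand counted is not given in the sources used here. The 5 summary lines, in which reads outside of genes were 21.5% to 24.1% and ambiguous reads 1.45% to 1.65% of each file, were left out, and 0 spike-in rows were found. The counting precision of a gene is set by its own reads in a library.

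Libraries were scaled by upper quartile, and log2 fold changes were computed with a pseudocount of 0.5 scaled reads for genes that averaged 10 reads or more. Intervals of ratios are exact Clopper-Pearson 95% intervals. Exon lengths came from the basic transcripts of GENCODE M21. Of the gene symbols, 23376 matched the annotation by symbol, 644 by an older symbol and 401 did not match. The group test used edgeR 4.0.16 (R 4.3.3) and, as an alternative, DESeq2 1.42.0. The group test was also run on simulated data, but the outcome is not given here. No conclusion on how the test performs at the dispersion estimated for these libraries is drawn from that run. Python 3.11.15, pandas 2.3.3, numpy 2.4.6, scipy 1.17.1 and matplotlib 3.10.9 were used.

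All 10 members and Nup153 are named with their values. Of each comparison list the genes past 1.5-fold are named, up to 3 per direction and comparison, and the highest and lowest gene where none passes may be named. The members and lists were chosen with earlier results of these data known. The labels give no replicate culture of any condition, so that the spread between these libraries may be technical. The prior degrees of freedom of the quasi-likelihood fit were infinite, so that its p-values rest on a spread pooled over genes. The calls of the likelihood ratio test rest on a preset dispersion and measure no spread between libraries. The alternatives were TMM, DESeq2's size factors, library totals, a pseudocount of 5 reads, a fold of 2, no filter on low counts, a fixed dispersion, and leaving out each knockdown library.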

Additional observations from a re-analysis of the deposited data

Results flagged for a closer look

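In all, 3 members lay above control in KD-1 and below it in KD-2, with 1 library each. The log2 fold change of KD-1 against KD-2 was 0.51 for Nup133, 0.49 for Ahctf1 and 0.37 for Nup98. The difference was not tested against a spread between replicates, since each knockdown has 1 library, and the likelihood ratio test of edgeR at preset dispersions of 0.01 and 0.04 called 0 members past 1.5-fold between these libraries, where it called 3996 and 689 of 16670 genes. A call also required 1.5-fold, which no member reached between these libraries, and both preset dispersions lie below the 0.0828 estimated by the group fit. Nup98 was at 0.20 for KD-1 and -0.18 for KD-2. Nup133 was at 0.03 in KD-1, with a counting interval that holds 0, and at -0.48 in KD-2, and Ahctf1 was at 0.03 and -0.46. With DESeq2's size factors Nup133 and Ahctf1 were both at -0.04 in KD-1, below control in both libraries, while Nup98 was at 0.13 and -0.14. Scaled on ES cell markers, Nup98 was above control in both, at 0.11 and 0.10. Nup133 at -0.06 and -0.21 and Ahctf1 at -0.06 and -0.18 were below control in both under that scaling. Scaled on proliferation genes all 3 were above control in KD-2, Nup133 at 0.09, Ahctf1 at 0.12 and Nup98 at 0.40, and KD-1 against KD-2 was at -0.03, -0.06 and -0.17.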

How the results depend on the processing

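The count of members past 1.5-fold in KD-1 and in KD-1 against KD-2 was 0 under every scaling run. A fold of 2 could not raise this count, the filter removes no member, and the likelihood ratio test also requires 1.5-fold. In both knockdowns as a group the count called was 0 by upper quartile, TMM, DESeq2's size factors and library totals. It was also 0 without the filter and with the Wald test, and the group test was not run when scaled on ES cell markers or proliferation genes. In KD-2 the count of 5 became 4 by TMM and by DESeq2's size factors, which leave out Nup160, 2 by library totals, 0 at a fold of 2, and 0 by the median ratio of the ES cell markers or of the proliferation genes, both added after seeing the data. In the likelihood ratio test of edgeR with a preset dispersion it was 5 at 0.01, where 3236 of 16670 genes were called, and 0 at 0.04, where 66 genes were called and Nup153 was not. The median log2 fold change in KD-2, -0.54, was -0.50 by TMM, -0.51 by DESeq2's size factors, -0.39 by library totals, -0.26 by the ES cell markers and 0.031 by the proliferation genes. In KD-1 it was -0.10, and -0.17 by DESeq2's size factors, -0.19 by the ES cell markers and -0.067 by the proliferation genes. In KD-1 against KD-2 it was 0.46, and 0.40 by TMM, 0.36 by DESeq2's size factors, 0.29 by library totals, 0.10 by the ES cell markers and -0.081 by the proliferation genes. These shifts follow from the scaling factors themselves, since each moves all genes of a library alike. For both knockdowns as a group the median was -0.27, and -0.54 to -0.10 with either knockdown library left out, which leaves no residual degree of freedom and no test. A pseudocount of 5 reads is small beside the reads of the members. It moved the median of each comparison between libraries by less than the median half-width of the members' counting intervals. No paired analysis was possible because each condition has 1 library. Depth does not limit these values, since the members have 4217 reads or more, but the spread between replicates was not measured.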
